A study of Mus musculus with 4 samples.

Results

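The array carried 5 genes of insulin signalling, namely the insulin receptor gene Insr, the insulin receptor substrate genes Irs1 and Irs2, the transcription factor gene Foxo1 and the glucose transporter gene Slc2a4. They were chosen by their symbols and role, with earlier results of these data known, and are 5 of the 84 genes of adipogenesis and lipid metabolism on the plate. Their expression was measured in 4 liver samples, 1 per group, from mice on a normal diet (ND) or a high fat diet (HFD), each with or without the mol-miR pool. The mice were male C57BL/6J, 2 months old and 12 in number, with 6 on each diet. The ND provided 3.85 kcal/g, with a share of 10% for fat and 70% for carbohydrate, and the HFD 5.24 kcal/g, with a share of 60% for fat and 20% for carbohydrate, while protein made up 20% of the energy in both. On each diet 3 mice received the mol-miR pool, made of microRNAs from *Moringa oleifera* seeds, through a gavage given every 2 days, and the diets lasted 5 weeks. The sources do not say if each liver sample is that of 1 mouse or a pool of several, or whether the mice without the pool received a gavage. With 1 sample per group and 1 well per gene, no difference given here has an error, a replicate check or a p-value. The samples are named by their labels, and no well of the plate checks which diet or treatment a sample had. The directions given here are those of the Ct columns as they are named. For most genes that the study counts as changed, it describes the opposite direction. Their expression is there higher in HFD than in ND, and lower when the pool was added to the HFD. Whether columns were exchanged or a ratio was inverted was not tested, so every direction below is open to that doubt.

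Insulin acts on a cell through its receptor, a tyrosine kinase encoded by Insr, which phosphorylates the adaptor proteins encoded by Irs1 and Irs2. These recruit phosphatidylinositol 3-kinase, and the kinase AKT that is activated downstream keeps the transcription factor FOXO1 out of the nucleus. In the fasted liver FOXO1 drives genes of glucose production and also Irs2 and Insr themselves. The transporter encoded by Slc2a4, known as GLUT4, brings glucose into muscle and fat cells in response to insulin, and hepatocytes rely on another transporter. Reduced insulin signalling in the liver is a known companion of high fat feeding.

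The value measured in a PCR array is the threshold cycle (Ct), at which the fluorescence of a well crosses a set level, so that a lower Ct stands for more template. Each Ct was set against the average of Actb, Gapdh, Gusb, Hprt and Hsp90ab1, the reference genes, in the same sample, which lay between 21.6 and 22.2. The plate also holds 1 genomic DNA control (MGDC), a well with primers for a stretch of DNA that is not transcribed. The Ct of MGDC was 26.8 in ND and 28.8 with the pool added, against 34.7 in HFD and 33.4 with the pool added. The positive PCR control, which does not depend on the sample, had a Ct in 2 of 3 wells for ND (16.9 and 17.9), 3 of 3 for ND + mol-miR pool (18.3 to 18.4) and 1 of 3 for HFD (21.2) as for HFD + mol-miR pool (22.0). The reverse transcription control had a Ct in 2 of 3 wells in ND + mol-miR pool and in 0 of 3 in each of the other samples. The part of these differences between plates in the values of the 5 genes was not tested. All 5 genes had a Ct below 30 in every sample, so none of their values was set by a Ct limit.

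The substrate genes Irs1 and Irs2, which took different courses over the samples, are shown with a stretch of their promoters. Windows of 250 bases before to 50 bases after the transcription start were at hand for Irs1, Irs2 and Foxo1 among the 5 genes, in the RefSeq annotation of the mouse build GRCm38.p6. They were searched on both strands for the insulin response element TGTTTTG, a sequence known to bind FOXO proteins, for the FOXO consensus TGTTTAC, and for the E-box CACGTG. The windows of Irs1 and Irs2 each held the insulin response element and the E-box, that of Foxo1 held neither, and the FOXO consensus was in 0 of the 3. Over all 32851 windows of this length, 6.28% held the insulin response element, 7.15% the E-box, 0.408% both and 3.65% the FOXO consensus. The stretches around both motifs are given 5′ to 3′ on the minus strand, with the motifs in capitals.
Irs1: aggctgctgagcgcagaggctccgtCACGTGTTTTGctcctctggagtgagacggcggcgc
Irs2: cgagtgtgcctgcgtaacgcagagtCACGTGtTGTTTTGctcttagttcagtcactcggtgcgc
The stretch of Irs1 lies at chr1:82291519-82291579 and that of Irs2 at chr8:11008935-11008998, both upstream of the start. In Irs1 the E-box begins 115 bases before the start and shares 2 bases with the insulin response element, of which the window holds 2 copies on this strand. In Irs2 the E-box begins 44 bases before the start, and 1 base separates it from the insulin response element. Matches of letters are a description and say nothing about binding in these livers.

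Of the 5 genes, Insr, Irs1 and Slc2a4 varied by 2.58, 2.82 and 2.52 cycles over the 4 samples after normalization, close to the median range of 2.76 cycles over the 84 genes. Irs2 varied by 1.16 cycles and Foxo1 by 0.95 cycles, the 13th and the 8th smallest ranges on the array. Insr, Foxo1 and Slc2a4 were highest in the sample labelled ND, whereas Irs1 was lowest there. Most of the array was also higher in ND. Relative to ND, 76 of the 84 genes were lower in HFD, 70 in ND + mol-miR pool and 56 in HFD + mol-miR pool. These values come from whole liver, in which fewer cells of a type and less RNA per cell cannot be told apart.

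**Figure D1:**
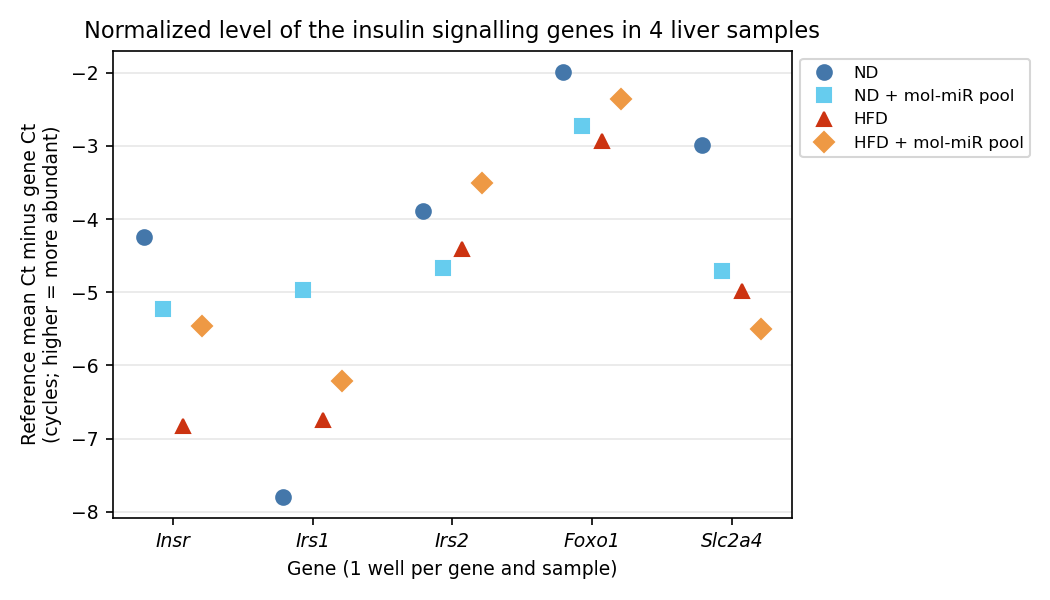
Normalized level of each gene (mean Ct of the 5 reference genes minus the Ct of the gene, in cycles) in the 4 liver samples, 1 point per sample and 1 well per point, without error bars. Insr, Foxo1 and Slc2a4 are highest in ND, and Irs1 is lowest in ND and highest in ND + mol-miR pool. Most array genes, too, are higher in ND than in each other sample. Heights are to be read within a gene, not between genes.

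Insr, the gene of the receptor itself, had a Ct of 25.9 in ND and 27.4 in ND + mol-miR pool, then 28.8 in HFD against 27.7 in HFD + mol-miR pool. The Ct lay 4.25, 5.23, 6.82 and 5.46 cycles after the mean of the reference genes in the same order. By the named columns the receptor gene was thus highest in ND and lowest in HFD, and the samples with the pool lay between them. For Insr, too, the study describes the opposite direction. The order of the pair in the middle depended on the reference, since ND + mol-miR pool was the higher of both with 3 of the 5 single reference genes and the lower with 2. The other neighbours in the order kept their direction with each of the 5, with 0.25 to 1.52 cycles between ND and ND + mol-miR pool and 0.56 to 2.38 cycles between HFD + mol-miR pool and HFD.

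Irs1 encodes the substrate best known from muscle and fat, and its Ct was 29.4 in ND and 27.1 in ND + mol-miR pool, then 28.7 in HFD against 28.5 in HFD + mol-miR pool. It was the 1 gene of the 84 with its latest Ct in ND. After normalization the Ct lay 7.79, 4.97, 6.75 and 6.22 cycles after the reference genes in these samples. The level was therefore highest in ND + mol-miR pool, and HFD + mol-miR pool, HFD and ND followed. On this scale 4 of the 84 genes were lowest in ND, the others being Agt, Klf3 and Sirt3. The gap between HFD and ND was 1.04 cycles and went from 0.075 with Actb alone to 1.79 with Hprt alone. HFD + mol-miR pool was above HFD with 3 of the 5 single references and below it with the other 2.

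Irs2, the gene of the substrate that responds to fasting in the liver, had a Ct of 25.5 in ND and 26.8 in ND + mol-miR pool, then 26.3 in HFD against 25.7 in HFD + mol-miR pool. The distances from the reference genes were 3.89, 4.67, 4.40 and 3.51 cycles in this order. HFD + mol-miR pool had the highest level and ND + mol-miR pool the lowest. No neighbours in the order kept their direction with all 5 single references, and the steps between neighbours were 0.38, 0.51 and 0.27 cycles.

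Foxo1 had a Ct of 23.6 in ND and 24.9 in ND + mol-miR pool, then 24.9 in HFD against 24.6 in HFD + mol-miR pool. Relative to the reference genes the Ct was later by 1.99, 2.72, 2.94 and 2.36 cycles. This transcription factor gene was the steadiest of the 5, and each of the 3 steps of its order, 0.37, 0.36 and 0.21 cycles, changed direction with at least 1 single reference gene.

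Slc2a4 had a Ct of 24.6 in ND and 26.9 in ND + mol-miR pool, then 26.9 in HFD against 27.7 in HFD + mol-miR pool. The distances from the reference genes were 2.99, 4.70, 4.99 and 5.51 cycles. The transporter gene was highest in ND, and its level there exceeded that in ND + mol-miR pool by 0.98 to 2.25 cycles over the 5 single references. The lower 2 steps, 0.28 and 0.52 cycles, changed direction with the reference. Genes typical of fat tissue were on the same plate, and their Ct in the same order of samples was 25.9, 28.1, 32.5 and 29.96 for Adipoq, 25.5, 27.3, 31.96 and 29.9 for Lep and 22.9, 24.1, 25.02 and 24.3 for Fabp4. Like Slc2a4, all 3 were earliest in ND. So was the median Ct of the array genes with a signal, at 25.4, 26.9, 28.4 and 27.4. Of the 6 fat genes looked at, Cfd was the exception, with 24.7, 22.5, 29.0 and 21.8, and Retn and Adig lay between 25.4 and 26.3 in ND and between 31.1 and 32.9 in HFD. In ND, Adipoq, Lep and Retn came 0.506 to 1.22 cycles before the MGDC well. The brown fat genes Ucp1 and Prdm16 had a Ct of 25.8 and 27.4 in ND and of 32.3 and 33.9 in HFD. The part of fat cells in the values of Slc2a4 was not tested. Of the genes tied to hepatocytes, Agt had a Ct between 23.3 and 24.0 in the 4 samples, Ppara between 23.4 and 25.2 and Nr0b2 between 24.99 and 26.7. Ppara and Nr0b2 were also earliest in ND, and Agt was earliest in HFD.

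The distance of a gene from the MGDC well differed widely between the samples. In ND, 4 of the 5 genes crossed within 3 cycles before MGDC or after it, as did 63 of the 84 genes of the array. The same held for 4 of the 5 and 55 of the 84 in ND + mol-miR pool. It held for 0 of the 5 in both samples of the high fat diet, where 17 array genes were so placed without the pool and 8 with it. Foxo1 stood farthest from MGDC among the 5 in every sample, by 3.17 cycles in ND and 3.94 in ND + mol-miR pool, then 9.78 in HFD against 8.79 in HFD + mol-miR pool. The signal of MGDC equalled 11.1% of that of Foxo1 in ND and 0.114% in HFD.

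Insr was earlier than MGDC by 0.918, 1.44, 5.89 and 5.70 cycles in the same order of samples. The signal of the control, taking a factor of 2 per cycle, equalled 52.9% of that of Insr in ND and 1.68% in HFD. For Irs2 the distance was 1.27, 1.995, 8.31 and 7.64 cycles in the same order, and for Slc2a4 it was 2.17, 1.96, 7.73 and 5.65 cycles. The control equalled 41.4% of the signal of Irs2 and 22.2% of that of Slc2a4 in ND. Irs1 was the extreme case. The Ct of MGDC minus that of Irs1 was -2.63 cycles in ND, so that Irs1 came later than the control, and 1.69, 5.96 and 4.93 cycles in the other samples, taken in the same order. In ND the control had 619% of the signal of Irs1, and of the 84 genes only Irs1, Prdm16 and Dkk1 came later than MGDC there, Irs1 by the most.

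**Figure D2:**
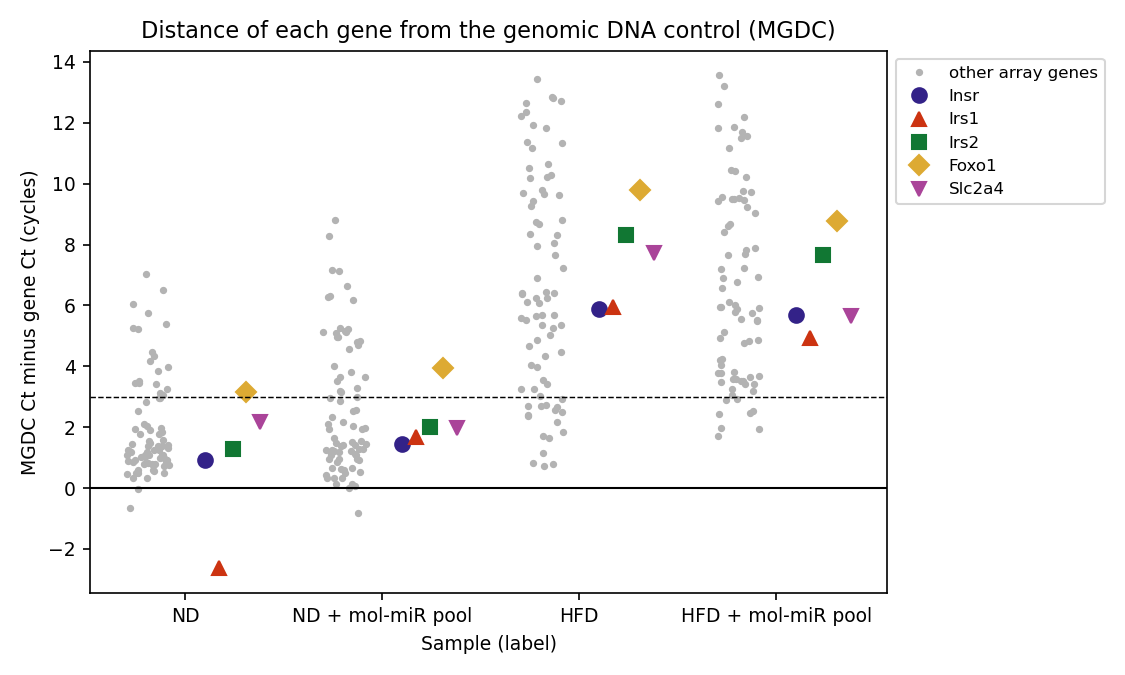
Ct of the genomic DNA control minus the Ct of the gene, in cycles, in each of the 4 samples; coloured symbols are the 5 insulin signalling genes, grey points the other array genes with a Ct, the solid line is the Ct of the control and the dashed line 3 cycles earlier. In ND, Irs1 lies on the late side of the control, at -2.63 cycles, and in HFD all 5 genes are 5.89 cycles or more on the early side.

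Fold changes between pairs of samples were then calculated, and those above 1.5 or below 0.5 were counted, which are the limits in the methods of the study. The 5 comparisons share samples, so that each of them is given by its own values. Over the 5 genes the median log2 value was -0.95 in HFD vs. ND, where that of the 84 genes was -2.53. It was 0.57 against 1.46 for the pool on the HFD and -0.78 against -0.99 for the pool on the ND. HFD + mol-miR pool gave -0.37 against -1.24 relative to ND, and -0.23 against -0.22 relative to ND + mol-miR pool. In the sample labelled HFD relative to ND, the question being what the diet changes, Irs1 was above 1.5, Insr and Slc2a4 were below 0.5, and Irs2 and Foxo1 lay between the limits. Over all 84 genes 3.57% were above 1.5 and 72.6% below 0.5. The fold change by the named columns was 0.167 for Insr, a log2 value of -2.58, with a direction opposite to that which the study describes. It is almost the array median of -2.53. Slc2a4 had a log2 fold change of -1.997, Foxo1 of -0.95 and Irs2 of -0.51. Irs1, at 1.04, stood highest of the 84 genes and 3.57 above the array median. Counted from the highest, Irs2 was 17th, Foxo1 23rd, Slc2a4 35th and Insr 43rd of 84. With the plate median, that is the median Ct over the array genes with a signal, taken as the reference, 4 of the 5 were above 1.5 (Irs1 3.73, Irs2 2.17, Foxo1 1.74 and Slc2a4 0.69, log2) and Insr was at 0.11. The array then had 35 genes above 1.5 and 30 below 0.5. With Actb alone Irs1 was at 0.08 and no longer above 1.5, and Irs2 (-1.48) and Foxo1 (-1.91) were below 0.5, as were 76 of the 84 genes, with 0 above 1.5. After the signal of the MGDC well was subtracted from every well, Insr was at -1.65, Slc2a4 at -1.78, Foxo1 at -0.92 and Irs2 at 0.12. Irs1 then had no value, since its ND well came later than the MGDC well.

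The comparison of HFD + mol-miR pool with HFD shows the pool on the high fat diet. Insr had a log2 fold change of 1.37 and Irs2 of 0.90, both above the limit of 1.5-fold. Foxo1 (0.57), Irs1 (0.53) and Slc2a4 (-0.52) were between the limits. The array as a whole had 84.5% of its genes above 1.5 and 1.19% below 0.5, with a median of 1.46, and none of the 5 genes reached that median. Slc2a4 was the second lowest of the 84 genes, at -1.97 relative to the array median. With the plate median as the reference, 0 of the 5 were above 1.5 and Slc2a4 (-1.77) was below 0.5, while Irs2 turned to -0.36. The array split was then 31 above and 7 below. With Hprt alone Insr (0.56) and Irs2 (0.09) were between the limits and Slc2a4 was at -1.32, with 43 array genes above 1.5 and 5 below 0.5. With Gapdh alone all but Slc2a4 (0.49) were above 1.5, as were 82 of the 84 genes. Irs1, Foxo1 and Slc2a4 changed sign with the reference.

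Between HFD + mol-miR pool and ND, Irs1 was above 1.5 with a log2 fold change of 1.57, the third highest of the 84 genes. Slc2a4 (-2.52) and Insr (-1.21) were below 0.5, and Irs2 (0.38) and Foxo1 (-0.37) were between the limits. On the array 14.3% of the genes were above 1.5 and 53.6% below 0.5, around a median of -1.24. Insr again lay at the median, 0.02 above it, whereas Slc2a4 lay at -1.28 and Irs1 at 2.81 relative to it. The value of Insr turned to 0.34 with Gapdh alone and to 0.22 with the plate median, and that of Irs1 went to 0.36 with Hsp90ab1 alone. The array split was 39 above and 27 below with Gapdh and 37 and 29 with the plate median. When the signal of the MGDC well was subtracted from every well, Insr was at -0.29, Slc2a4 at -2.32 and Irs2 at 1.01. For Irs1 no value was left, again because its ND well came later than the MGDC well.

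On the normal diet, the sample with the pool relative to ND had Irs1 above 1.5, with a log2 fold change of 2.82 or 7.06-fold, the highest of the 84 genes. Slc2a4 (-1.71) was below 0.5, and Insr (-0.99), Irs2 (-0.78) and Foxo1 (-0.73) were between the limits. The background was 4.76% above 1.5 and 48.8% below 0.5, with a median of -0.99. The value of Irs1 was between 2.28 with Hsp90ab1 alone and 3.56 with Gapdh alone. Every comparison of Irs1 with ND rests on the ND well that came later than the MGDC well, and after the MGDC signal was subtracted no value was left for Irs1 in ND. By the same subtraction Slc2a4 was at -1.87, Foxo1 at -0.76, Insr at -0.66 and Irs2 at -0.52. Slc2a4 was between the limits with Gapdh alone (-0.98) and with the plate median (-0.80), with 16 and 18 array genes above 1.5 and 9 and 3 below 0.5, respectively.

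With the pool given on both diets, HFD + mol-miR pool relative to ND + mol-miR pool, Irs2 was above 1.5 with a log2 fold change of 1.16, the 6th highest of the 84 genes. Irs1 was below 0.5 at -1.25. Foxo1 (0.36), Insr (-0.23) and Slc2a4 (-0.80) were between the limits. Over the array 23.8% of the genes were above 1.5 and 34.5% below 0.5, and the median was -0.22. Irs2 was positive with each of the 5 single references (0.49 to 1.98), although within the limits with Hsp90ab1, and it was 1.53 after the MGDC signal was subtracted from all wells. Irs1 was negative with each of them (-1.92 to -0.43), between the limits with Gapdh and Actb, and at -0.80, also between the limits, after the subtraction. The array split was 44 above and 23 below with Gapdh alone and 36 and 25 with the plate median.

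**Figure D3:**
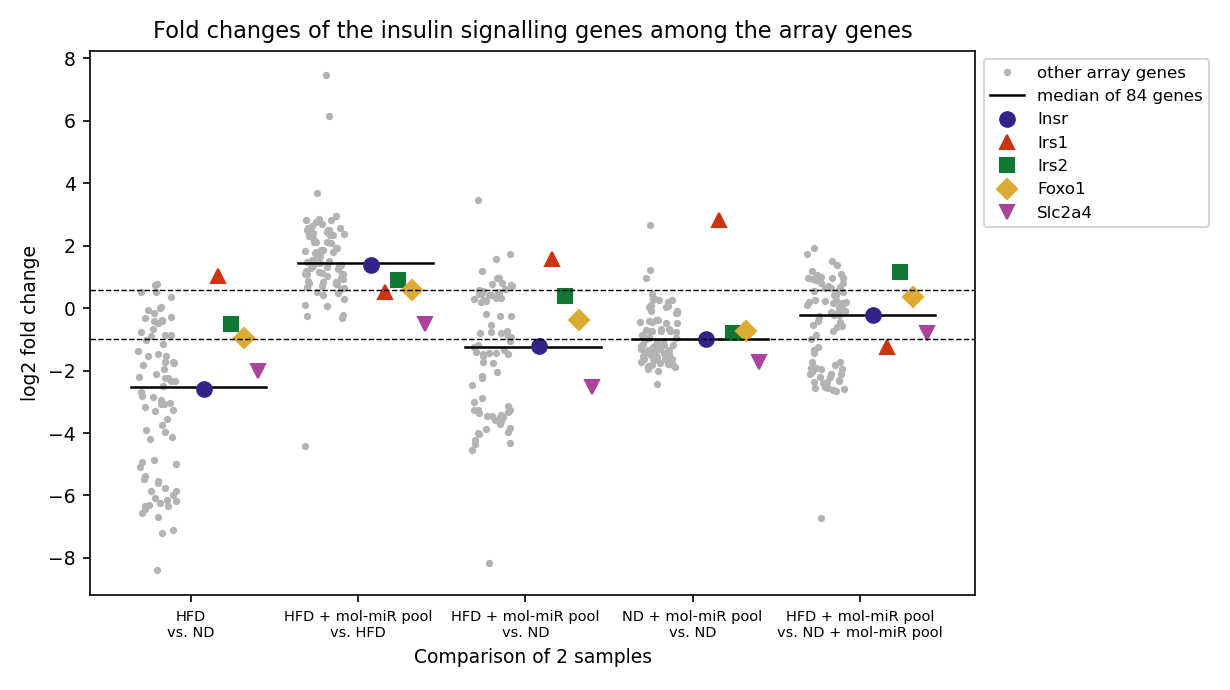
log2 fold change in the 5 comparisons, relative to the average of the 5 reference genes; coloured symbols are the insulin signalling genes, grey points the other array genes, the black bar is the median of the 84 genes and the dashed lines are the limits of 1.5-fold and 0.5-fold. Insr lies within 0.09 of the median in each comparison, and Irs1 is the highest gene in HFD vs. ND (1.04) and in ND + mol-miR pool vs. ND (2.82). Both values of Irs1 rest on an ND well that came later than the MGDC well.

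With the mean of the reference genes, Irs1 and Irs2 had opposite signs in 3 of the 5 comparisons. In the other 2 both were positive, with 1.57 for Irs1 and 0.38 for Irs2 relative to ND, and 0.53 and 0.90 relative to HFD, in the sample with the pool on the high fat diet. Irs1 was the higher of them in the 3 comparisons that have ND as the control. All 3 share the same ND well of Irs1, which came later than the MGDC well, so they are not separate observations. Among the reference genes the Ct of Gapdh differed by 2.18 cycles over the 4 samples, that of Actb by 1.25, Hprt by 1.07, Gusb by 0.771 and Hsp90ab1 by 0.593.

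**Figure D4:**
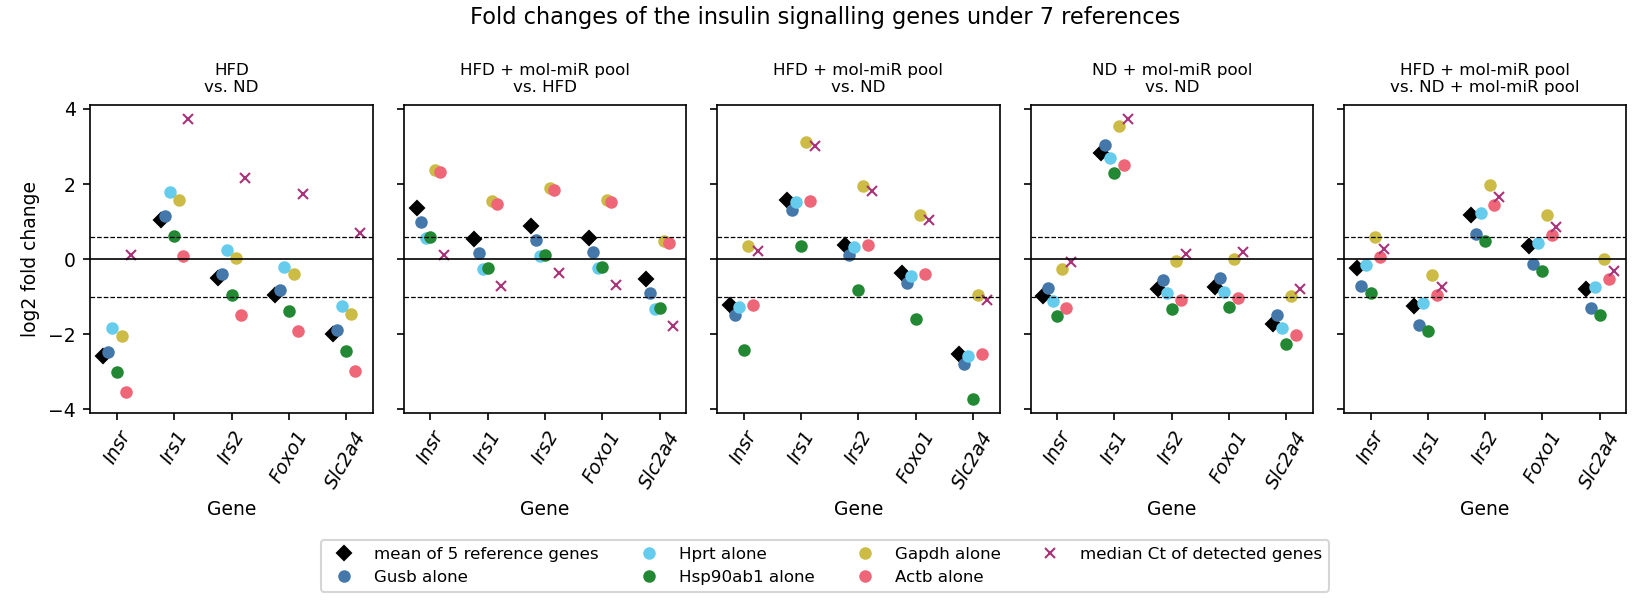
log2 fold change of each of the 5 genes in each comparison under 7 references, namely the mean of the 5 reference genes (black), each reference gene alone (dots) and the plate median (crosses); dashed lines are the limits of 1.5-fold and 0.5-fold. The spread between references exceeds 1 cycle in every comparison. Within a comparison it is the same for all genes, since a change of reference shifts them alike. Irs1 in ND + mol-miR pool vs. ND stays at 2.28 or more.

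Put side by side, the log2 fold changes that go with the pool were -0.99 on the ND and 1.37 on the HFD for Insr, -0.78 and 0.90 for Irs2, and -0.73 and 0.57 for Foxo1. Irs1 was higher with the pool on both diets (2.82 and 0.53) and Slc2a4 lower on both (-1.71 and -0.52). On the HFD the signs of Irs1, Foxo1 and Slc2a4 changed with the single reference. Lower with the pool on the ND and higher on the HFD was the course of 66 of the 84 genes, and 3 of the 5 had it. Higher on both diets were 13 genes of the array, and lower on both were 4, Slc2a4 among them. The value on the HFD minus that on the ND was 2.35 for Insr, 1.68 for Irs2, 1.30 for Foxo1 and 1.19 for Slc2a4, with an array median of 2.28. For Irs1 it was -2.29, the lowest but 1 of the 84 genes. Over the single references it went from -2.97 with Hprt to -1.03 with Actb for Irs1, and from 1.68 to 3.61 for Insr, so that neither changed sign. The difference for Irs1 rests on the ND well that came later than the MGDC well, and it has no value after the MGDC signal is subtracted.

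The array genes with the course most like each of the 5 were found by the root mean square difference of the normalized Ct over the 4 samples, each gene taken around its own mean. The nearest to Insr were Twist1 (0.137 cycles), Src (0.150) and E2f1 (0.170), which encode a transcription factor, a tyrosine kinase and a factor of the cell cycle. Foxo1 had Ncoa2, a coactivator of nuclear receptors, at 0.0757 cycles, Nr0b2 at 0.163 and Ppargc1a, a coactivator of FOXO1 in glucose production, at 0.274. For Irs2 they were Hes1 (0.119), Tsc22d3 (0.123) and Ppargc1a (0.133). The nearest to Slc2a4 were Cdk4 (0.406), Rb1 (0.436) and Cdkn1b (0.460), all of the cell cycle. Irs1 had no near neighbour, Ddit3 being the closest at 0.632 cycles, before Klf3 (0.923) and Cebpa (0.965). Among the 5 genes, Irs2 and Foxo1 were the most alike (0.330 cycles) and Irs1 and Slc2a4 the least (1.77). These are descriptions over 4 points that share their reference genes.

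Beside the 5 genes, the array holds 15 others that were listed for their ties to insulin action. In HFD vs. ND, 1 of the 15 was above 1.5 and 9 were below 0.5, with a median log2 fold change of -1.36, beside 3.57% and 72.6% of all 84 genes and their median of -2.53. The 4 genes listed for lipid synthesis were the highest group (median 0.23), from -0.76 for Nr1h3 to 0.75 for Srebf1. The 3 secreted factors Adipoq, Lep and Retn were the lowest, from -6.35 for Retn to -6.09 for Lep. In ND these 3 came only 0.506 to 1.22 cycles before the MGDC well, and in HFD their Ct was 31.96 to 32.9. The part of genomic DNA in their values was not tested. For Lep and Retn the study describes the opposite direction. Lpl and Lipe, the enzymes of fat uptake and release, were at -2.35 and -3.27, and the 6 partners of FOXO1 and regulators of glucose production went from -2.86 for Creb1 to -0.41 for Cebpa.

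When the pool was added to the HFD, 13 of the 15 genes were above 1.5 and 0 below 0.5, where 84.5% and 1.19% of all 84 genes were. The 6 partners of FOXO1 were among the 13 (0.67 for Cebpa to 2.08 for Sirt2). The 2 between the limits were genes of lipid synthesis, of which Fasn was the lowest (-0.23). With the pool on both diets, 5 of the 15 were above 1.5 and 3 below 0.5, beside 23.8% and 34.5% of the array. The 4 lipid synthesis genes were all above, from 0.95 for Nr1h3 to 1.93 for Srebf1, as was Ppargc1a (1.08). The 3 secreted factors were below, and they came 0.002 to 1.53 cycles before the MGDC well in ND + mol-miR pool. Against ND, 3 of the 15 were above 1.5 and 6 below 0.5 in HFD + mol-miR pool, beside 14.3% and 53.6% of the array. In ND + mol-miR pool they were 0 and 7, beside 4.76% and 48.8%. The counts of the 15 were made with the mean of the 5 reference genes only. For the pool on the HFD, the array genes above 1.5 fell from 71 to 43 with Hprt alone. With the pool on both diets they fell from 20 to 7 with Gusb alone and to 4 with Hsp90ab1 alone.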

How the data were processed

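RNA of 4 mouse liver samples was measured by the authors with an adipogenesis PCR array and SYBR Green. The deposited table used here gives the authors' Ct of every well as a raw score, not normalized, for 96 wells and 4 samples. A second deposited table holds the authors' own fold changes and was not used. Columns were assigned to samples by name, low-fat diet standing for ND. For most genes that the study counts as changed, it describes the opposite direction. Missing or later values were set to a Ct of 35, the mean Ct of 5 reference genes was subtracted, and the difference between 2 samples, turned in sign, was taken as the log2 fold change, with a factor of 2 per cycle. Values above 1.5-fold or below 0.5-fold were counted over all 84 genes. All 84 symbols were found in RefSeq. Alternatives were single reference genes, a mean of Hprt, Hsp90ab1 and Gapdh, the plate median, other Ct and fold limits, a filter at a Ct of 30, and subtraction of the MGDC signal on the linear scale, which assumes that every assay amplifies genomic DNA as the control does. The genes to name were the 5 members, the 3 nearest genes of each, and the extremes of 4 lists, and values of further genes were added where they bear on a member. Members and lists were chosen with earlier results of these data known, and the promoter motifs were chosen after the data were seen. With 1 sample per group no test was possible. The calculation was tested on simulated data, in which the reference genes shifted alike and no genomic DNA signal was added. This checks the arithmetic only, and says nothing about the choice of reference or the MGDC signal. Python 3.11.15, numpy 2.4.6, pandas 2.3.3 and matplotlib 3.10.9 were used.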

Additional observations from a re-analysis of the deposited data

Results flagged for a closer look

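For Insr, Irs2 and Foxo1 the value that goes with the pool had opposite signs on the 2 diets, and the value on the HFD minus that on the ND was 2.35, 1.68 and 1.30 (log2). For Irs1 the HFD vs. ND value had opposite signs without the pool (1.04) and with it (-1.25), and the same difference was -2.29. Irs2 (-0.51 and 1.16) and Foxo1 (-0.95 and 0.36) also had opposite signs in HFD vs. ND without and with the pool. These signs depended on the reference. Without the pool, Irs2 was positive with Hprt alone (0.23) and Gapdh alone (0.03). With the pool, Foxo1 was negative with Gusb alone (-0.135) and Hsp90ab1 alone (-0.32). For the pool on the HFD, Foxo1 was negative with Hprt alone (-0.23) and Hsp90ab1 alone (-0.20). With the plate median the pool values on the ND and HFD were 0.13 and -0.36 for Irs2, and 0.18 and -0.68 for Foxo1. The 1.04 and the -2.29 of Irs1 rest on the ND well that came later than the MGDC well. After the MGDC signal was subtracted, no value was left for Irs1 in ND. The difference was not tested in any of the 4 genes, since each group has 1 sample. The array median of this difference was 2.28. Lower with the pool on the ND and higher on the HFD were 66 of the 84 genes.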

How the results depend on the processing

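No paired analysis was possible because the labels give no replicate numbers and each group has 1 sample, and no sample could be left out. Irs1 relative to ND had no value once the MGDC signal was subtracted, and these cases are left out of the total that follows. Under the alternatives the 5 genes had 294 values. Of these, 239 kept their place relative to the limits, 50 crossed a limit and 5 changed from past a limit to the opposite sign. The last were Insr (0.11) and Slc2a4 (0.69) in HFD vs. ND, Irs2 (-0.36) when the pool was added to the HFD and Insr (0.22) in HFD + mol-miR pool vs. ND, all with the plate median, and Insr in the last comparison with Gapdh alone (0.34). No value crossed a limit with the mean of Hprt, Hsp90ab1 and Gapdh. The same held without a Ct limit, with a Ct limit of 32 and with only genes of a Ct below 30. These last settings could not change a value, since all 5 genes had a Ct below 30 in every sample. Their 25 values each are counted among the 239 and say nothing about stability. The cause of the other differences was not tested.

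The counts of the 5 genes are given as above 1.5 and below 0.5, each with the counts over all 84 genes in parentheses, which moved too. In HFD vs. ND they were 1 and 2 (3 and 61). They became 0 and 4 with Actb alone (0 and 76), 1 and 3 with Hsp90ab1 alone (1 and 67), 4 and 0 with the plate median (35 and 30), and 0 and 2 with the MGDC signal subtracted from all wells (4 and 56) or from the array genes (6 and 53), by which Irs1 has no value in ND. For HFD + mol-miR pool relative to HFD they were 2 and 0 (71 and 1). They became 1 and 0 with Gusb alone (59 and 1), 0 and 1 with Hprt alone (43 and 5), 1 and 1 with Hsp90ab1 alone (46 and 5), 4 and 0 with Gapdh alone or Actb alone (82 and 1 in both), 0 and 1 with the plate median (31 and 7), and 1 and 0 with a limit of 2-fold (58 and 1). For HFD + mol-miR pool relative to ND they were 1 and 2 (12 and 45). They became 0 and 3 with Hsp90ab1 alone (1 and 57), 3 and 0 with Gapdh alone (39 and 27), 3 and 1 with the plate median (37 and 29), and 1 and 1, with Irs2 in place of Irs1, with the subtraction from all wells (16 and 31) or from the array genes (19 and 28). In ND + mol-miR pool vs. ND they were 1 and 1 (4 and 41). They became 1 and 2 with Hprt alone (4 and 48), 1 and 4 with Hsp90ab1 alone (3 and 60) or Actb alone (4 and 56), 1 and 0 with Gapdh alone (16 and 9) or the plate median (18 and 3), and 0 and 1 with the subtraction from all wells (5 and 35) or from the array genes (5 and 34). For HFD relative to ND, both with the pool, they were 1 and 1 (20 and 29). They became 1 and 2 with Gusb alone (7 and 36), 0 and 2 with Hsp90ab1 alone (4 and 38), 3 and 0 with Gapdh alone (44 and 23), 2 and 0 with Actb alone (27 and 27) or the plate median (36 and 25), and 1 and 0 with the subtraction from all wells (29 and 16) or from the array genes (30 and 15).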
